A study of Mus musculus with 4 samples.

Results

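Transcript levels of 10 mouse genes that buffer or move copper and zinc were compared between Hoxb8 cells carrying an empty vector (EV) and Hoxb8 cells expressing DNMT3A R882H, in a study of heme biosynthesis and copper-dependent death of acute myeloid leukaemia cells. The genes were chosen by name: the metallothioneins Mt1 and Mt2, their regulator Mtf1, the zinc exporter Slc30a1, the copper importer Slc31a1 and its relative Slc31a2, the copper pumps Atp7a and Atp7b, and the copper chaperones Atox1 and Ccs. All 10 were found among the 52636 gene lines of the count table, and 9 had enough counts to be tested among 11444 genes. Each group had 2 libraries made with QuantSeq, a tag method that reads 1 stretch near the 3′ end of each polyadenylated transcript, so levels of different genes can be compared as CPM, counts scaled to library size, with no correction for length. Both groups are Hoxb8 cells, a type of line usually made by holding mouse blood progenitors in growth with the homeobox factor Hoxb8. DNMT3A R882H is a recurrent leukaemia variant of a DNA methyltransferase. No label read here states the strain, the vector's promoter, the number of clones or whether replicates came from separate cultures. The p-values therefore cover the spread among these 4 libraries, which may be technical.

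Metallothioneins are small cysteine-rich proteins that bind zinc and copper in the cytosol. Their genes are switched on by MTF1, a zinc-sensing transcription factor that binds metal response elements in promoters. Copper enters the cell through SLC31A1, is handed to target proteins by the chaperones ATOX1 and CCS, and leaves through the pumps ATP7A and ATP7B, which ATOX1 loads. Excess copper that binds lipoylated mitochondrial enzymes can kill cells, a death called cuproptosis.

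The libraries held 5470330 to 5921985 counts. Dnmt3a, the gene of the expressed variant, had 264 and 270 counts in EV and 254 and 239 in R882H (log2 fold change −0.19 ± 0.15 SE, edgeR adjusted p = 0.334), and a 3′ tag need not cover a transgene, so this does not check the labels. All 16 progenitor markers listed were tested, led by Cd34 (1304 CPM on average without the variant, 1375 CPM with it) and Ctsg, and 5 rose and 1 fell (37.5% called, beside 38.8% of all tested genes). Mpo, a granule enzyme, rose from 32.7 ± 3.19 to 1242 ± 40.5 CPM, and the receptor gene Kit rose from 26.5 ± 8.70 to 77.6 ± 13.4 CPM (SD, n = 2). The transcription factor gene Cebpa fell, with 526 and 665 counts in EV libraries and 367 and 378 in R882H libraries. Marker lists of other cell types also moved. The 10 B-lineage markers summed to 578 to 592 CPM in EV libraries and 1818 to 1819 CPM in R882H libraries, led by Igll1 and Ebf1, and 8 of 8 tested rose. The 9 mast cell and basophil markers summed to 99.9 to 102 and 416 to 433 CPM, led by Cpa3, with 4 of 5 tested higher, 1 lower and Fcer1a, Tpsb2 and Cma1 at 0. The 8 megakaryocyte markers, mostly Pf4, summed to 928 to 1105 and 59.5 to 65.9 CPM, with 3 of 5 tested lower and 1 higher. The 7 T-lineage markers, nearly all Thy1, summed to 622 to 713 and 8.95 to 12.5 CPM, with Cd3e, Cd3g, Cd4 and Cd8a at 0. Erythroid markers summed to 8.78 to 14.1 CPM and fibroblast markers to at most 2.29 CPM in any library. The Y-linked gene Ddx3y had 0 and 2 counts in EV libraries and 65 and 41 in R882H libraries. Eif2s3y had 1 and 0 against 26 and 29, and Uty 0 and 0 against 12 and 10, while Xist was present in all 4 libraries. Y-linked transcripts were thus nearly absent from the EV libraries, and an effect of the variant cannot be told apart from another difference between the lines in any R882H against EV value given here. The part of the marker differences in the results on metal genes was not tested.

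Both metallothionein transcripts were lower with R882H, Mt2 by 5.17-fold and Mt1 by 1.53-fold. Mt2 overlaps the opposite-strand gene Gm45774, and with all Gm45774 counts taken off, its log2 fold change was −1.71 in place of −2.37. Mt2 (ENSMUSG00000031762, mm10 chromosome 8, 94172664 to 94173568, plus strand) stood at 925 and 1161 CPM in the EV libraries against 202 and 202 CPM in the R882H libraries, from 5046, 6580, 1208 and 1150 counts. The EV libraries lay well above the R882H libraries, which were nearly equal to each other. The change was a log2 fold change of −2.37 ± 0.15 (SE, edgeR adjusted p = 3.71e-15). Mt1 (ENSMUSG00000031765, chromosome 8, 94179082 to 94180327, plus strand) stood at 1546 and 1865 CPM against 1132 and 1093 CPM. Its groups did not overlap either (log2 fold change −0.62 ± 0.15 SE, edgeR adjusted p = 0.000907). In bulk RNA, fewer cells that express a gene and less of its RNA per cell cannot be told apart. Both calls held with each library left out in turn and in DESeq2.

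Together Mt1 and Mt2 held 0.246% (exact 95% interval 0.242 to 0.251) and 0.306% (0.301 to 0.311) of all counts in the EV libraries. In the R882H libraries they held 0.135% (0.132 to 0.138) and 0.126% (0.123 to 0.129). Intervals cover counting error only. Mt1 ranked 57th by level among the tested genes in EV and 110th in R882H, and Mt2 110th in EV and 892nd in R882H. The Mt2 ranks and the summed shares include counts that Gm45774 may share, while Gm45774 does not overlap Mt1. The other metallothionein genes of this cluster, Mt3 and Mt4, had no counts in any library, which allows up to 3 counts or 0.502 to 0.550 CPM each.

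Because both genes were counted in the same libraries, their ratio does not depend on library size. Mt2 made up 37.4% (95% exact interval 36.6 to 38.3) and 38.4% (37.6 to 39.1) of the Mt1 and Mt2 counts in EV. It made up 15.2% (14.4 to 16.0) and 15.6% (14.8 to 16.4) in R882H. The log2 ratio of Mt2 to Mt1 was −0.71 ± 0.040 (SD, n = 2) in EV and −2.46 ± 0.035 (SD, n = 2) in R882H, a difference of −1.75 or 3.36-fold, and of −1.10 with the Gm45774 counts taken off. The difference was larger than the SD within either group. An exact two-sided permutation test gave p = 0.333, the smallest that 2 libraries against 2 can give. The 2 genes are paralogs: the longest exact run shared by any pair of their GENCODE M21 transcripts was 20 bases, and any pair of 75-base stretches differed at 11 or more positions.

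**Figure D1:**
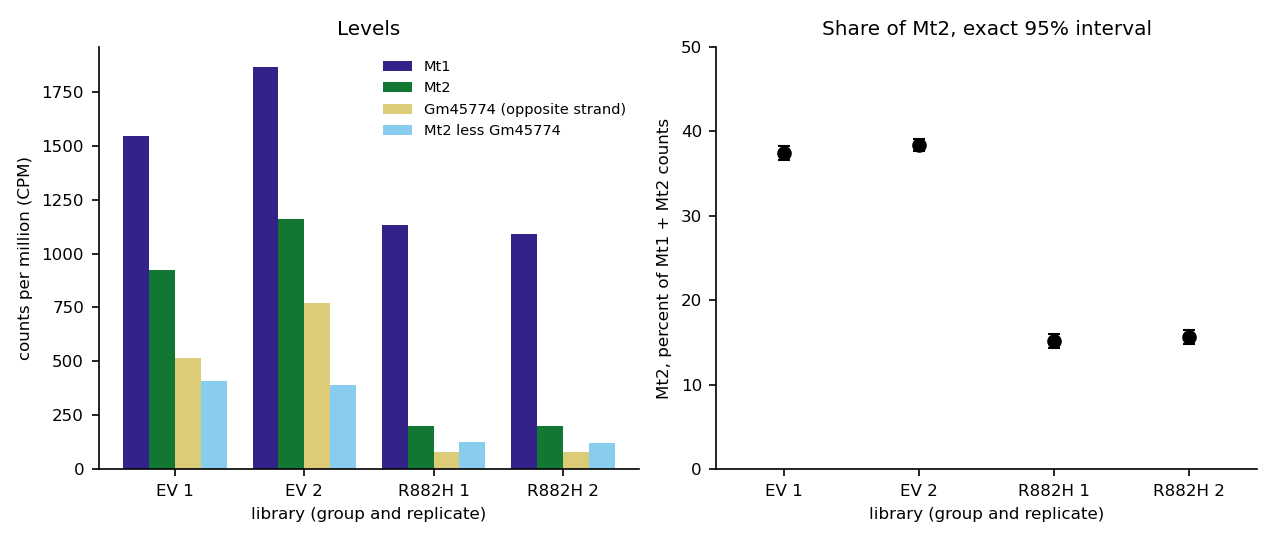
Left, levels in CPM of Mt1, Mt2, the opposite-strand gene Gm45774 and Mt2 less the Gm45774 counts, 1 bar per library. Right, Mt2 as a percentage of the Mt1 and Mt2 counts with exact 95% intervals. The 2 EV libraries sit at 37.4% and 38.4% and the 2 R882H libraries at 15.2% and 15.6%.

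Mt2 and another annotated gene may share reads, so either count may include reads of the other. Gm45774, an antisense transcript (chromosome 8, 94170748 to 94173412, minus strand), covers 749 of the 905 bases spanned by the Mt2 gene, introns included. The share of Mt2 exon bases it covers was not computed. Its 3′ end, at 94170748, lies outside Mt2. Gm45774 had 2814 and 4360 counts in EV libraries and 469 and 460 in R882H libraries (log2 fold change −3.01 ± 0.16 SE, edgeR adjusted p = 2.33e-16). No strand setting was stated. In another opposite-strand pair, Loxl3 and Htra2, counts were 1286 and 1285 in EV replicate 1 and 1189 and 1189 in EV replicate 2. In R882H replicates 1 and 2 they were 1460 and 1462, and 1794 and 1794. Reads where that pair overlaps thus appear to have been counted for both genes whatever the strand. Mt2 and Gm45774 may share reads in the same way, and how many they share was not tested. Gm45774 counts equalled 55.8% and 66.3% of the Mt2 counts in EV and 38.8% and 40.0% in R882H. With all Gm45774 counts taken off, Mt2 kept 2232 and 2220 counts in EV and 739 and 690 in R882H, or 409 and 392 CPM against 124 and 121 CPM. The edgeR adjusted p of the fall was then 1.55e-12. Any Mt2 reads that were counted for Gm45774 are taken off as well, so these values may understate Mt2. The EV libraries, which differed in Mt2, were close to each other after the subtraction.

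Promoter stretches of Mt2 and Mt1 are shown because MTF1 is known to act there and the genes moved by different amounts. Short stretches of Slc30a1 and Atp7a that hold matches to the metal response element are given beside them. RefSeq promoter windows (GRCm38.p6, 250 bases before to 50 after the annotated start) were matched for 9 of the 10 genes, and Ccs had none. Capitals mark the core of the metal response element, searched as TGCACNC and TGCGCNC on both strands. The Mt1 stretch from 94179089 and the Slc30a1 stretch from 191906799 begin at or after the annotated start. The Mt2 match that lies after the start is not printed.

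Mt2, chr8:94172388-94172607, plus strand: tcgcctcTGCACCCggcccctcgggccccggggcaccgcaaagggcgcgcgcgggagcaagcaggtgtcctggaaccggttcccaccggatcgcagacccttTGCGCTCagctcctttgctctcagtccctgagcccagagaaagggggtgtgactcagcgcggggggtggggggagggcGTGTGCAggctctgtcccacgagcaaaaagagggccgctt
Mt1, chr8:94178979-94179078, plus strand: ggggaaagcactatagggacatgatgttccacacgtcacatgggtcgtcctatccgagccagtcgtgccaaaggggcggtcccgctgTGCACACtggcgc
Mt1, chr8:94179089-94179118, plus strand: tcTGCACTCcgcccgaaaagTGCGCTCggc
Slc30a1, chr1:191906726-191906755, plus strand: aacgggggttccGAGTGCAaagcaaagttt
Slc30a1, chr1:191906799-191906828, plus strand: cgcctccgggccGAGCGCAgtcgccgcgga
Atp7a, chrX:106027083-106027112, plus strand: agaatgcatGCGTGCAccaggGGGCGCAag

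The Mt2 window held 4 matches, 3 of them before the annotated start, and the Mt1 window 3, of which 1 lay before the annotated start. Each window rests on 1 annotated start, while GENCODE lists 3 transcripts of Mt1 and 2 of Mt2. The 3′ tags do not show which start was used. The numbers of matches before the start therefore cannot be compared between the genes. Slc30a1 and Atp7a had 2 each, Slc31a2 and Atp7b 1 each, and Mtf1, Slc31a1 and Atox1 none. Among all 32851 windows of this length, 25.7% held at least 1 match, 7.11% at least 2, 1.97% at least 3 and 0.517% at least 4. A match describes these letters and is not a measured site.

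Mtf1 itself (ENSMUSG00000028890, chromosome 4, 124802104 to 124849800) stood at 67.3 and 58.8 CPM in EV libraries against 49.4 and 48.4 CPM in R882H libraries. The groups did not overlap, and the log2 fold change was −0.37 ± 0.14 (SE, edgeR adjusted p = 0.0362). The call ended in DESeq2 (adjusted p = 0.173) and when EV replicate 1 (0.153) or either of R882H replicate 1 (0.169) and 2 (0.211) was left out. Its exons also overlap 1110065P20Rik on the opposite strand, and with those counts taken off the log2 fold change was −0.31 (edgeR adjusted p = 0.128).

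Slc30a1 (ENSMUSG00000037434, chromosome 1, 191906767 to 191913247), which carries zinc out of the cell and is a known MTF1 target, stood at 13.4 and 12.7 CPM against 10.2 and 8.78 CPM. Both R882H libraries were below both EV libraries, but the difference did not pass the test (log2 fold change −0.46 ± 0.23 SE, edgeR adjusted p = 0.116). Of 8 other reported MTF1 targets, 6 were tested: 3 rose and none fell by edgeR, with 1 lower at an unadjusted p under 0.05, 1 called lower without EV replicate 1 and 0 lower by DESeq2. That is 50% called, beside 38.8% of all tested genes called and 19.3% higher, and the median log2 fold change of the 6 was 0.50. The list was not split by whether MTF1 activates or represses a gene, so its median has no expected direction. Slc39a10, a zinc importer that MTF1 is reported to repress in mouse, rose from 28.7 ± 1.67 to 48.9 ± 3.80 CPM (SD, n = 2; log2 fold change 0.77 ± 0.16 SE, edgeR adjusted p = 0.000197). The selenoprotein gene Selenow (0.74 ± 0.17) and the stress gene Ndrg1 (0.81 ± 0.18) rose on the log2 scale too, and Ndrg1 overlaps Gm17035 on the opposite strand. Slc30a2 had 0 counts in every library.

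Neither copper uptake gene was called. The importer Slc31a1 (ENSMUSG00000066150, chromosome 4, 62360727 to 62391769) stood at 45.3 and 45.9 CPM in EV libraries against 38.5 and 39.8 CPM in R882H libraries (log2 fold change −0.22 ± 0.15 SE, edgeR adjusted p = 0.256). Its relative Slc31a2, linked to copper release from endosomes, stood at 7.70 and 8.12 CPM against 7.03 and 4.74 CPM (log2 fold change −0.42 ± 0.29 SE, edgeR adjusted p = 0.262). The size of the Slc31a2 difference depended on R882H replicate 2: the log2 fold change was −0.16 without that library and −0.72 without R882H replicate 1.

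Of the chaperones, Atox1 fell and Ccs did not pass the test. Atox1 (ENSMUSG00000018585, chromosome 11, 55446641 to 55461239), which hands copper to the export pumps, stood at 111 and 116 CPM in EV libraries against 86.0 and 86.7 CPM in R882H libraries, and fell with a log2 fold change of −0.40 ± 0.13 (SE, edgeR adjusted p = 0.0144). Within each group its libraries were close together and the groups did not overlap. The call ended in DESeq2 (adjusted p = 0.0525) and when R882H replicate 1 (0.155) or 2 (0.135) was left out, with log2 fold changes of −0.37 to −0.44 over all alternatives. Ccs (ENSMUSG00000034108, chromosome 19, 4825366 to 4839332), which delivers copper to superoxide dismutase, had 92 and 85 counts in EV libraries and 107 and 117 in R882H libraries, or 15.9 ± 1.32 against 19.2 ± 1.86 CPM (SD, n = 2). It was the 1 tested gene of the 10 that was higher in R882H, without passing the test (0.27 ± 0.19 SE, edgeR adjusted p = 0.280).

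The export pump Atp7a (ENSMUSG00000033792, chromosome X, 106027276 to 106124926) was scarce, with 18 and 24 counts in EV and 11 and 5 in R882H, or 3.30 and 4.24 against 1.84 and 0.878 CPM. It fell 2.73-fold (log2 fold change −1.45 ± 0.47 SE, edgeR adjusted p = 0.0147), and the groups did not overlap. The call ended in DESeq2 (adjusted p = 0.178) and when EV replicate 2 (0.146) or R882H replicate 2 (0.216) was left out, and the log2 fold change ran from −2.06 to −1.01 as libraries were left out. Its paralog Atp7b, the pump of liver cells, had 0 and 0 counts in EV and 1 and 2 in R882H, which is at or under the 3 counts that a count of 0 allows, so no fold is given.

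**Figure D2:**
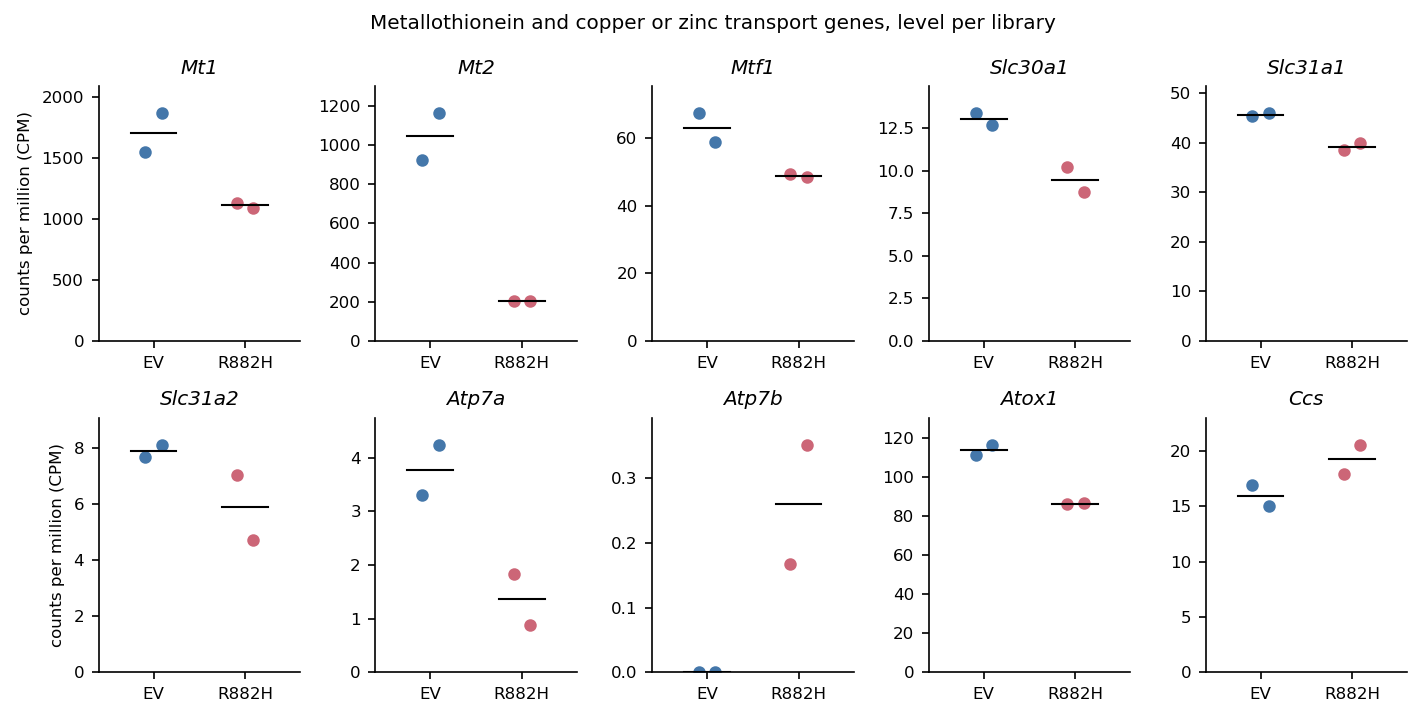
Level in CPM of each of the 10 genes, 1 point per library, with a line at the group mean (n = 2). Each vertical axis starts at 0 and has its own scale. In 8 of the 9 tested genes both R882H points lie below both EV points, and in Ccs they lie above.

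Of the 9 tested genes, 5 fell and 4 were not called. None rose by edgeR, with 0 higher at an unadjusted p under 0.05 and 0 by DESeq2. The share called was 55.6%, beside 38.8% called among all 11444 tested genes, of which 19.4% were lower and 19.3% higher in R882H. The median log2 fold change was −0.42 over the 9 genes and 0.01 over all tested genes. The groups did not overlap for any of the 9, with both R882H libraries lower in 8 and higher in 1, beside 69.1% not overlapping in either direction and 33.9% with both R882H libraries lower among all tested genes. In DESeq2 the count of members that fell was 2 (Mt1 and Mt2), without R882H replicate 1 it was 3, and without R882H replicate 2 it was 2.

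**Figure D3:**
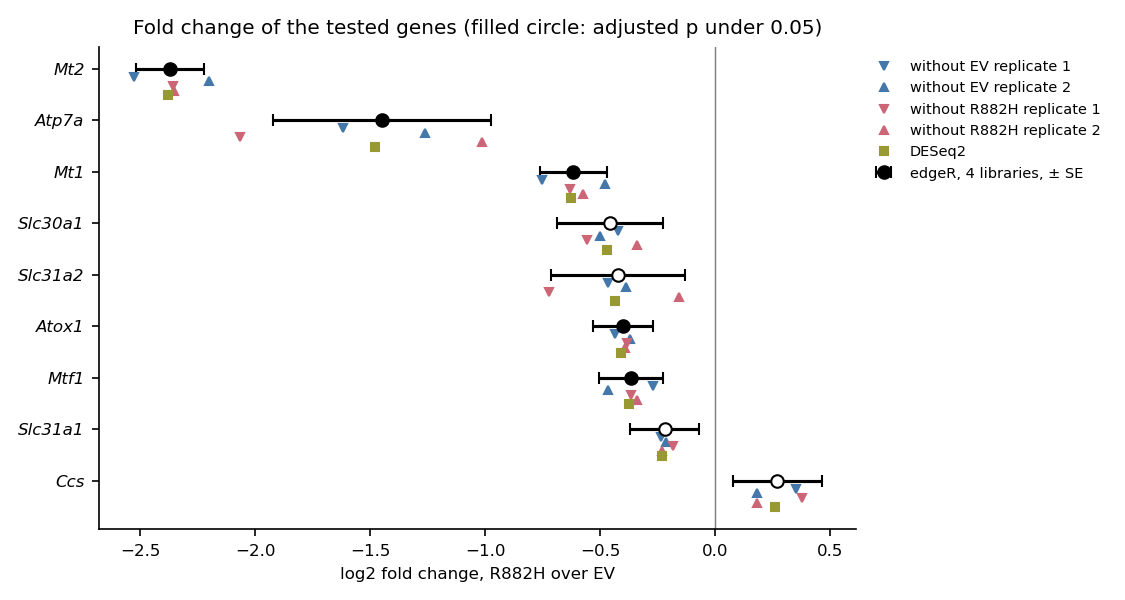
Log2 fold change (R882H over EV) of the 9 tested genes. Circles are the edgeR values from 4 libraries with SE, filled where the adjusted p was under 0.05, and the small symbols give the values without each library and in DESeq2. Mt2 stands at −2.37, Ccs alone lies above 0, and every small symbol lies on the same side of 0 as its circle.

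Other copper proteins moved in both directions. Of 39 listed, 38 were in the table and 24 were tested. By edgeR 3 rose, 4 fell and 17 were not called, which is 29.2% called beside the 38.8% of all tested genes, with a median log2 fold change of −0.07. The lowest log2 fold changes of the list were those of App and Prnp, copper-binding membrane proteins. App, the amyloid precursor, had 317 and 402 counts in EV and 14 and 3 in R882H (log2 fold change −5.45 ± 0.28 SE, edgeR adjusted p = 7.04e-17). Prnp, the prion protein gene, had 57 and 65 counts in EV and 0 and 1 in R882H. The ratio was 128 (exact 95% interval 22.6 to 5100, counting error only). The copper-dependent amine oxidase Loxl2 fell from 11.3 ± 1.45 to 4.70 ± 0.45 CPM (SD, n = 2; −1.25 ± 0.28 SE), and Cuta, named for copper tolerance in bacteria, fell too (−0.50 ± 0.13 SE). Cuta overlaps Phf1 on the opposite strand, and its call ended without R882H replicate 1 (edgeR adjusted p = 0.123).

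The reductase Steap3 (1.09 ± 0.17 SE), the small CHCH-domain gene Chchd7 (0.86 ± 0.15 SE) and the complex IV assembly factor Cmc1 (0.40 ± 0.14 SE) rose on the log2 scale. Chchd7 kept its call with each library left out. Steap3 lost it without EV replicate 1 (edgeR adjusted p = 0.0753) and EV replicate 2 (0.0651), and Cmc1 in DESeq2 (0.168) and without EV replicate 2 (0.241), R882H replicate 1 (0.117) or R882H replicate 2 (0.0919). Of the genes that carry copper into complex IV, Cox11, Sco1 and Sco2 were not called, with log2 fold changes of −0.18 ± 0.23, −0.20 ± 0.21 and −0.25 ± 0.20 (SE), and Cox11 and Sco2 overlap other genes. Cox17, which overlaps Gm21987, stood at 350 and 178 CPM in EV libraries against 248 and 245 CPM in R882H libraries, so the R882H libraries lay between the EV libraries. It was not called with all libraries, was called higher without EV replicate 1 and was called lower without EV replicate 2. The superoxide dismutase Sod1, the client of Ccs, stood at 881 ± 108 CPM in EV libraries and 839 ± 77.0 CPM in R882H (SD, n = 2; log2 fold change −0.07 ± 0.14 SE, edgeR adjusted p = 0.736). These 12 had no counts in any library: Steap2, Cp, Heph, Hephl1, Sod3, Lox, Loxl1, Loxl4, Dbh, Moxd1, Aoc3 and Tyr.

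Of 24 zinc transporters outside the 10 genes, 15 were tested and 5 were called, which is 33.3% beside the 38.8% of all tested genes, with a median log2 fold change of −0.17. Of 14 Slc39 genes, which bring zinc into the cytosol, 11 were tested: 4 fell, 1 rose and 6 were not called (45.5% called). Slc39a1 fell from 153 ± 22.2 to 101 ± 1.59 CPM (SD, n = 2; log2 fold change −0.61 ± 0.13 SE, edgeR adjusted p = 0.000508). Slc39a5 stood at 45.9 ± 10.7 against 24.1 ± 0.52 CPM (SD, n = 2; −0.93 ± 0.17 SE). Slc39a7, which releases zinc from the endoplasmic reticulum, (log2 fold change −0.59 ± 0.14 SE) and Slc39a14, which also carries iron (−1.42 ± 0.44 SE), fell as well. Slc39a7 shares exon positions with Gm20427 and lost its call without R882H replicate 2 (edgeR adjusted p = 0.0937). Slc39a14, at 4.40 ± 0.77 against 1.63 ± 0.42 CPM (SD, n = 2), lost its call in DESeq2 (adjusted p = 0.142) and without EV replicate 2 (0.110) or R882H replicate 1 (0.128). The 1 that rose was Slc39a10, described above. Slc39a8 was too low to test, with 0 and 2 counts in EV and 9 and 13 in R882H. The ratio was 10.5 (exact 95% interval 2.58 to 91.9, counting error only). Of the exporters listed beside Slc30a1, 4 were tested and none was called by edgeR or DESeq2, with 1 (Slc30a5) at an unadjusted p under 0.05 and log2 fold changes of −0.29 to 0.32. Whether exporters and importers differ was not tested. Slc30a2, Slc30a3, Slc30a8 and Slc30a10, like the importer Slc39a12, had no counts.

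**Figure D4:**
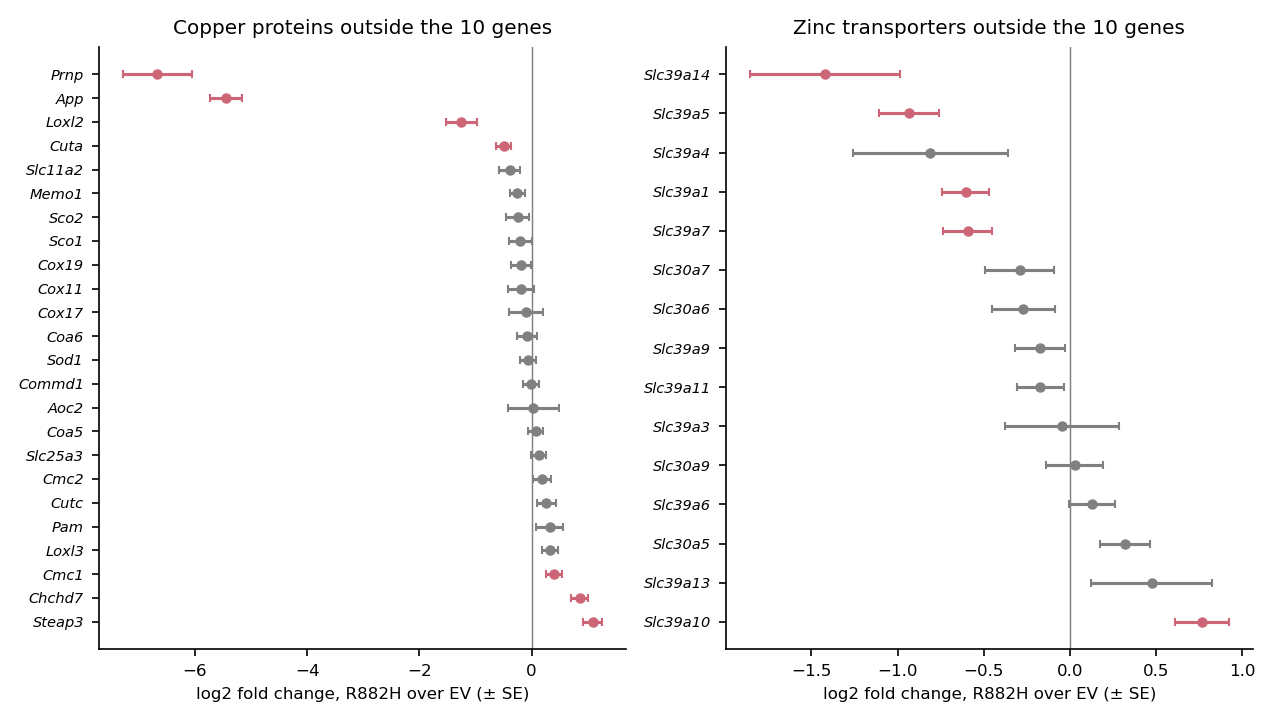
Log2 fold change (R882H over EV) with SE of the tested copper proteins (left, 24 genes) and zinc transporters (right, 15 genes) that are not among the 10. Red marks an edgeR adjusted p under 0.05: 3 copper genes rose and 4 fell, and 1 zinc gene rose and 4 fell. The Prnp value rests on 1 count in R882H.

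Glucocorticoids also induce metallothionein genes. Of 10 other glucocorticoid-induced genes, 7 were tested: 3 rose by edgeR and none fell, with 0 lower at an unadjusted p under 0.05 and 0 by DESeq2. The share called, 42.9%, was near the 38.8% of all tested genes. Cdkn1c had no counts. Tsc22d3 rose from 15.9 ± 1.83 to 31.7 ± 1.32 CPM (SD, n = 2; log2 fold change 0.99 ± 0.18 SE, edgeR adjusted p = 3.23e-05). Ddit4 (0.57 ± 0.15 SE) and the mRNA decay factor Zfp36 (0.72 ± 0.23 SE) rose as well, and Zfp36 lost its call in DESeq2 (adjusted p = 0.165) and without EV replicate 1 (0.0870) or R882H replicate 2 (0.0810). Fkbp5, a widely used readout of the hormone, stood at 101 ± 5.93 against 102 ± 0.906 CPM (SD, n = 2). In the list of heat shock and early response genes 3 of 6 tested rose (Dnajb1, Fos and Jun) and 1 fell (Egr1), which is 66.7% called beside 38.8% of all tested genes. DESeq2 called 2 higher and 0 lower, and with single libraries left out edgeR called 1 to 3 higher and 0 to 1 lower, with 1 higher without R882H replicate 1. The list's summed level was 107 to 108 CPM in EV and 128 to 153 CPM in R882H. The part of these differences in the metallothionein levels was not tested.

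The genes whose values over the 4 libraries were nearest to those of Mt2 were found by the Euclidean distance of centred log2 CPM among 2551 genes of at least 50 CPM. They were Lima1, an actin-binding protein (distance 0.187), the tubulin gene Tuba1a (0.274), the PACAP receptor gene Adcyap1r1 (0.337), the glutathione transferase gene Gstm1 (0.362) and Ank, a pyrophosphate transporter (0.381). Lima1 stood at 136 ± 12.7 against 23.4 ± 0.298 CPM (SD, n = 2). The distances used all Mt2 counts, including any that Gm45774 may share. Genes nearest to Mt2 with the Gm45774 counts taken off were not sought. The similarity covers 4 libraries only and the fold follows from the choice, so no test is given, and Tuba1a and Gstm1 belong to families of close paralogs whose reads may be divided between genes.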

How the data were processed

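Per the labels' protocols, polyadenylated RNA of 4 Hoxb8 libraries was prepared with the QuantSeq 3′ kit. The authors deposited raw counts per Ensembl gene. The tools named in the submitters' processing notes are HISAT2 2.0.4, Subread 2.0.0 with featureCounts, cutadapt 1.14, bcl2fastq 2.17.1.14, limma 3.48.3 and edgeR 3.34.0, with the build mm10. How each was set, with which annotation and strand option, is not stated there.

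Symbols and 1-based positions come from GENCODE M21, on the assembly of mm10 (52403 of 52636 lines matched). edgeR 4.0.16 in R 4.3.3 was run on all genes: filterByExpr, TMM factors, robust glmQLFit, glmQLFTest of R882H over EV, Benjamini-Hochberg adjustment over 11444 genes, threshold 0.05. "Rose" and "fell" mean past that threshold. CPM use TMM-scaled library sizes. The SE was taken from the F statistic and the log2 fold change. Where a group held 1 to 3 counts, the ratio, taken over the summed libraries of each group, carries an exact 95% interval. That interval covers counting error only, not the spread between libraries. The code was tested on simulated data. Libraries within a group differed beyond sampling noise (chi-square per degree of freedom 6.91 in EV and 4.61 in R882H). DESeq2 1.42.0 and other settings were alternatives.

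Named genes were the 10 members; from each pathway list up to 4 called genes in each direction with the smallest adjusted p, and those at 0 in all libraries; from marker lists the 2 with the most counts; and the 5 nearest to Mt2 among genes of at least 50 CPM that overlap no other gene. Sod1, Cox11, Cox17, Sco1, Sco2, Loxl3, Htra2, Slc30a5, Slc39a8, Fkbp5, Mpo, Kit, Cebpa, Ddx3y, Eif2s3y, Uty, Xist and the heat shock genes were named after their values were seen. Members and lists were chosen with earlier results of these data known.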

Additional observations from a re-analysis of the deposited data

How the results depend on the processing

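Each of the 9 tested members kept its direction under every alternative run. Mt1 (log2 fold change −0.75 to −0.48) and Mt2 (−2.53 to −1.71) also kept their calls, and the calls of Mtf1, Atp7a and Atox1 ended as given above. The count of members that fell was 5, with 2 in DESeq2, 3 without genes whose exons overlap another gene (which removes Mt2 and Mtf1) and 2 to 4 as single libraries were left out. Across the table, edgeR called 2213 genes higher and 2222 lower, and DESeq2 called 1297 and 1412; leaving out single libraries gave 1508 to 2065 higher and 1446 to 2168 lower, lowest without R882H replicate 1. The copper list's 3 rises were partly lost, or joined by others, as single libraries were left out. The added genes were Loxl3, which overlaps Htra2, and Cox17, which overlaps Gm21987. The zinc list's single rise became 2 without a low-count filter, and 1 to 2 as libraries were left out, the added gene being Slc39a8. Taking off the Gm45774 counts, an alternative chosen after seeing the data, moved the log2 Mt2 to Mt1 difference from −1.75 to −1.10, since those counts are then removed from Mt2 alone; so was the 1110065P20Rik alternative. The replicate block, which shares only a number between groups (correlation of replicate deviations −0.0026), gave 2196 genes higher and 2229 lower and 5 members that fell. Where the cause of a change is not stated it was not tested. Atp7a, Atp7b and Slc31a2 are limited by depth.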
